A study of Mus musculus with 8 samples.

Results

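The genes described here are 40 mouse genes of the DNA replication machinery, from the proteins that mark replication origins to the enzymes that make deoxynucleotides. They were listed by name from general knowledge of replication, with earlier results of these data known. Probes were assigned to genes by RefSeq identifier first, and otherwise by the gene name on the array. For 6 members, Orc1 to Orc6, the array carries older names, and these were found through their RefSeq identifiers. All 40 members were found, on 48 probes, among 18792 genes that passed the filter on signal, and the probe that stood for each of them was well above background on all 8 arrays.

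Gene expression was measured on 8 one-colour arrays of RNA from 2 cultured mouse pre-B leukaemia lines. The line 70Z/3 is labelled a pre-B lymphoblast, and '18-81' a pre-B cell transformed by Abelson murine leukaemia virus. Each line received 10 nM of a synthetic duplex by lipid transfection, either pre-miR-125b, which delivers the microRNA miR-125b, or the control duplex miR-Neg. The arrays were made to look for miR-125b targets. The 4 groups had 2 arrays each, labelled replicates 1 and 2, from 2 independent experiments, and all shared a medium change at 8 h and RNA harvest at 48 h. Both arms were transfected, so the control is a culture with another duplex and not an untreated one. Each line stands for 1 leukaemia, and the share of cells that took up a duplex is not given in the labels.

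A replication origin is bound by the origin recognition complex, and Cdc6 and Cdt1 then load the ring of Mcm2 to Mcm7 that becomes the replicative helicase. Cdc45, the GINS complex and Mcm10 turn that ring into a working helicase, after which polymerases copy both strands, held to DNA by the sliding clamp Pcna that the RFC complex loads. Transcripts of many of these genes rise when cells enter S phase, largely through E2F transcription factors, so their level in a culture follows how many of its cells are cycling. In RNA from whole cultures, fewer cells with a transcript and less transcript per cell cannot be told apart.

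The microRNA is shown first because it is what the groups differ in. Its mature strand in RefSeq has 22 bases, with the seed, bases 2 to 8, in capitals.
mmu-miR-125b-5p: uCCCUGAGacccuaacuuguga
Transcripts of the members were not searched for this seed, because no transcript sequences were used here.

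The E2F link was described from the promoters, whose windows run from 250 bases before to 50 bases after each start in RefSeq (GRCm38.p6). Windows were matched for 34 of the 40 members. Of the core words that E2F factors are known to bind, 4 were searched on both strands: the word TTGGCGC, a form with another centre, TTCCCGC, a further one that reads TTCGCGC, and last the word TTGCCGC. Overlapping matches were each counted. At least 1 word was present for 23 of the 34 members (67.6%), against 10.9% of all 27025 genes with a window. By window the shares were 25 of 41 for the members and 9.57% of all 32851. The licensing factors, the lagging strand enzymes, the chromatin assembly factors and the matched polymerases all had a word, as did 4 of the 5 matched helicase subunits, 3 of the 6 origin recognition subunits, 3 of the 5 matched clamp and loader genes, 1 of the 3 matched helicase activation genes, 2 of 3 each for single-strand binding and nucleotide supply, and not Slbp. A match describes the letters of a window and not a bound site. The 150 bases before the start are shown, with the words in capitals, for the helicase subunit Mcm6, which had the most matches, for Cdc6 and Pola1, with fewer, and for the helicase subunit Mcm2, with none in its window. In Mcm6 each run of capitals holds overlapping words on opposite strands.
Mcm6 (chr1:128359706-128359855, minus strand): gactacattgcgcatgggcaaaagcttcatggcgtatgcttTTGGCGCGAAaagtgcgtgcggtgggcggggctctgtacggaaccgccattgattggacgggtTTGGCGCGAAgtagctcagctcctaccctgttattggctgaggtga
Cdc6 (chr11:98908001-98908150, plus strand): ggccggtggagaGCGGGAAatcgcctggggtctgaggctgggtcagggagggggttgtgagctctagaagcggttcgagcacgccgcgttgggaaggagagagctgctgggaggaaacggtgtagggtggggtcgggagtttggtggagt
Pola1 (chrX:93632156-93632305, minus strand): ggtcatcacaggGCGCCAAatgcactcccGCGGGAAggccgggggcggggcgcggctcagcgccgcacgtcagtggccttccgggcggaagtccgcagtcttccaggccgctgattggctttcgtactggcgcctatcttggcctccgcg
Mcm2 (chr6:88898781-88898930, minus strand): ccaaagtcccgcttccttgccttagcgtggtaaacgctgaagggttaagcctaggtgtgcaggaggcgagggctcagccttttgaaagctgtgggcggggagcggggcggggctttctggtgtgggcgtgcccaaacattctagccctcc

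Values below are log2 signals of a gene's probe relative to the 75th percentile of its array, so they compare arrays for 1 gene and never 1 gene with another. Differences are log2 differences with the standard error of a limma fit to all 8 arrays, and adjusted p-values are Benjamini-Hochberg values over all genes tested, called under 0.05. Of 12 B-cell precursor markers, 10 were well above background on both arrays of every group, while Rag1 and Rag2 were on neither. None of 5 stromal markers was above background on both arrays of any group. The arrays were alike in signal except replicate 2 of 70Z/3 with miR-Neg, whose 75th percentile was 279 intensity units against 424 to 591 on the other 7, with 38.9% of spots well above background against 42.5 to 45.8%. All 8 arrays lay on 1 slide, where each column held 1 group and each row 1 replicate. Slide column and group therefore cannot be told apart, and neither can slide row and replicate number.

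With miR-125b in 70Z/3, 38 of the 40 members had a value below 0, as did 61.4% of all genes, and none of these differences passed the test. After quantile normalization 29 members were below 0, and 27 in the authors' deposited normalized values. The fit called 0 members and 0% of the 18792 genes. At an unadjusted p under 0.05, limma gave 3 members lower and none higher, against 3.1% of all genes lower. These 3 were Fen1, Rfc5 and Rrm2. The median member differed by −0.35, against −0.14 for the median gene, which leaves −0.22 relative to all genes, 0.86-fold. It was −0.14 after quantile normalization and in the authors' deposited values, and −0.13 after normexp background correction. By replicate the shift was −0.04 in pair 1 and −0.38 in pair 2. Relative to the median gene, 31 members were lower, 20 of them in both pairs. The lowest was −1.36 and the highest 0.49.

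The arrays themselves show where that shift lies. Both miR-125b arrays of 70Z/3 were below both miR-Neg arrays for 22 of the 40 members (55%), against 22.8% of all genes, and 1 member had the opposite order. Under quantile normalization, which moves the median of all genes from −0.14 to −0.01, these were 12 members (30%) against 19.4% of genes, and with the authors' deposited normalized values 13 (32.5%) against 18.4%. Without the dim miR-Neg array, both miR-125b arrays were below the other miR-Neg array for 26 members (65%), against 31.4% of genes. Without it, 30 members were below the median gene and the shift was −0.24. Without any filter on dim probes, 17 of the 40 members were below the median gene, and the shift was 0.03. The miR-Neg arrays of 70Z/3 differed from each other by more than the fitted miR-125b difference for 25 of the 40 members.

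**Figure D1:**
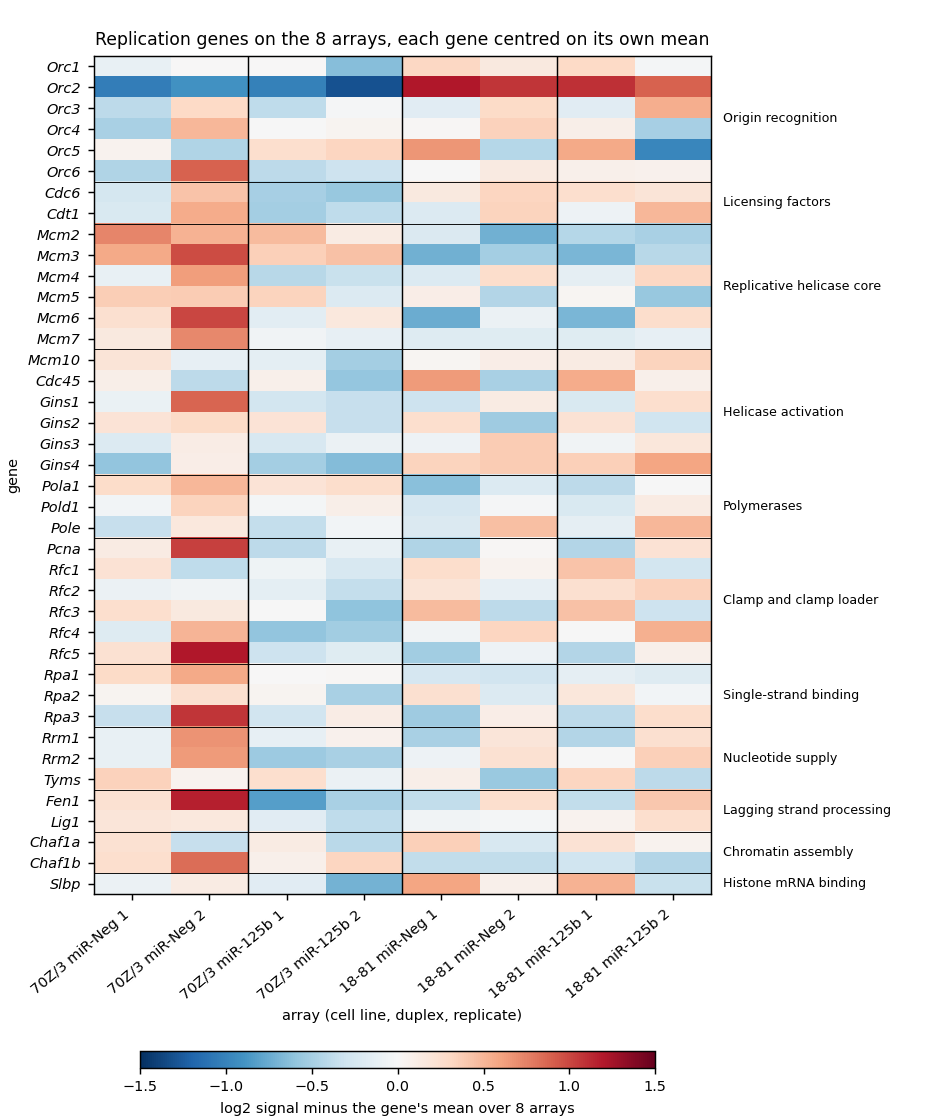
Each row is 1 replication gene and each column 1 array, with colour giving the log2 signal minus that gene's mean over the 8 arrays, and horizontal lines separating the roles. The column of 70Z/3 miR-Neg replicate 2 is the reddest for many genes, Orc2 separates the lines, and Mcm2 and Mcm3 are blue on the '18-81' arrays.

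The median subunit of the origin recognition complex was at −0.03 relative to all genes in 70Z/3, 0.15 in pair 1 and −0.21 in pair 2. Of its 6 subunits 4 were below the median gene, and none had both miR-125b arrays lower. Orc5 was the only member with both higher: it read 1.05 and 0.54 with miR-Neg and 1.25 and 1.32 with miR-125b, a difference of 0.49 ± 0.55 (SE, n = 2 arrays a group; limma adjusted p = 0.797). The gap between its miR-Neg arrays, 0.51, was as large as that difference. Orc4, at −0.48 and 0.51 with miR-Neg and 0.00 and 0.05 with miR-125b, differed by 0.01 ± 0.39, with pairs of opposite sign (0.48 and −0.46). Orc6, −0.57 ± 0.42, was the lowest subunit, with 5.08 and 6.42 under miR-Neg and 5.14 and 5.22 under miR-125b, so that its value rests on the high miR-Neg replicate 2. Orc1, Orc2 and Orc3 lay between −0.26 and −0.14.

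Both licensing factors had both miR-125b arrays below both miR-Neg arrays in 70Z/3, an order that 22.8% of all genes had. Cdc6, the ATPase that helps load the Mcm ring, read 1.60 and 2.29 with miR-Neg and 1.36 and 1.29 with miR-125b, a difference of −0.62 ± 0.31 (limma adjusted p = 0.767). Cdt1, its partner in loading, read 5.94 and 6.72 against 5.66 and 5.79, a difference of −0.61 ± 0.38. Both pairs were negative for each gene, and replicate 2 gave the larger difference in each.

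All 6 subunits of the Mcm2 to Mcm7 helicase had both miR-125b arrays below both miR-Neg arrays, an order that 22.8% of all genes had. Their median was −0.31 relative to all genes. How many of the 6 keep that order under other scalings was not counted. After quantile normalization 5 of the 6 were below the median gene, with a median of −0.10, and with the authors' deposited normalized values 4 of 6, with −0.09. Mcm4 (−0.63 ± 0.35), Mcm6 (−0.62 ± 0.44) and Mcm7 (−0.52 ± 0.29) were the lowest, and Mcm3 (−0.37 ± 0.28), Mcm2 (−0.33 ± 0.30) and Mcm5 (−0.31 ± 0.35) followed, with no adjusted p under 0.767. Mcm6 read 8.39 and 9.16 with miR-Neg and 8.00 and 8.31 with miR-125b, so the lower control and the higher treated array were 0.09 apart. For Mcm5 the lower control read 6.40 and the higher treated array 6.37. The 6 subunits are separate genes read from the same 4 arrays, so their common direction is not 6 independent observations.

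Among the genes that activate the helicase, Gins1, a GINS subunit, was the lowest at −0.69 ± 0.39, with 4.16 and 5.14 under miR-Neg and 3.99 and 3.92 under miR-125b. Mcm10 (−0.36 ± 0.28) had nearly equal pairs of −0.34 and −0.38, and Gins2 (−0.32 ± 0.37) also had non-overlapping arrays. For Gins2 the lower control and the higher treated array both read 3.57, so its difference came from replicate 2. Gins4 (−0.34 ± 0.31), Gins3 (−0.12 ± 0.29) and Cdc45 (−0.10 ± 0.45) overlapped. The catalytic polymerase subunits lay close together: Pola1, which starts each new strand with primase, at −0.16 ± 0.29, Pold1 at −0.12 ± 0.29 and Pole at −0.11 ± 0.37. Relative to all genes the polymerases had a median of 0.02, and under quantile normalization none of the 3 was below 0, so their direction depends on the scaling.

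The clamp and its loader held 2 of the 3 lowest members in 70Z/3. Rfc5, a subunit of the clamp loader, read 5.96 and 6.93 with miR-Neg and 5.42 and 5.55 with miR-125b. Both miR-125b arrays lay below both controls, by −0.96 ± 0.39 (pairs −0.54 and −1.39; limma adjusted p = 0.767). Pcna, the clamp, read 7.16 and 8.06 against 6.64 and 6.93, a difference of −0.83 ± 0.40 (pairs −0.52 and −1.13; limma adjusted p = 0.767). Without the dim miR-Neg replicate 2, Rfc5 was at −0.48 and Pcna at −0.38, and without miR-Neg replicate 1 they were at −1.45 and −1.28. After quantile normalization Pcna was at −0.50. Rfc4 (−0.71 ± 0.35), Rfc3 (−0.51 ± 0.41) and Rfc2 (−0.18 ± 0.27) were also non-overlapping, and the second probe of Rfc4 gave −0.55. The large subunit Rfc1 stood apart at −0.07 ± 0.35, with pairs of opposite sign. The median of these 6 genes was −0.47 relative to all genes, and −0.46 both after quantile normalization and in the authors' deposited values. All 6 were below 0 in the main fit, against 4 of 6 under each of those scalings, where Rfc2 was at 0.04 and 0.06.

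Fen1, the nuclease that trims the flap of each Okazaki fragment, had the largest difference of all members. It read 6.28 and 7.22 with miR-Neg and 5.22 and 5.57 with miR-125b. Both miR-125b arrays were lower, by 1.06 in pair 1 and 1.65 in pair 2, and the fitted difference was −1.36 ± 0.44 (2.56-fold lower; limma adjusted p = 0.749), which did not pass the test. After quantile normalization it was −1.04 (limma adjusted p = 0.538). Leaving out the second miR-Neg array gave −0.89, and leaving out the first gave −1.82. Fen1 was measured with 1 probe, at chr19:10273675-10273734 in mm9 by the array's own annotation. Lig1, the ligase that seals the fragment after Fen1 has acted, differed by −0.45 ± 0.26, also without overlap.

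Rrm2, the small subunit of ribonucleotide reductase whose transcript marks S phase, read 6.97 and 7.72 with miR-Neg and 6.53 and 6.59 with miR-125b, a difference of −0.78 ± 0.34 (limma adjusted p = 0.767). After quantile normalization its difference was −0.45, no longer at an unadjusted p under 0.05. The partner subunit Rrm1 (−0.32 ± 0.40) and thymidylate synthase, Tyms (−0.12 ± 0.37), overlapped between the groups. In the single-strand binding complex, Rpa1 was at −0.41 ± 0.26 without overlap, while Rpa2 (−0.36 ± 0.31) and Rpa3 (−0.46 ± 0.50) overlapped. The histone chaperone subunits Chaf1a (−0.08 ± 0.35) and Chaf1b (−0.35 ± 0.30) also overlapped, and Slbp, which binds the stem-loop of histone mRNA, was at −0.46 ± 0.38 without overlap.

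**Figure D2:**
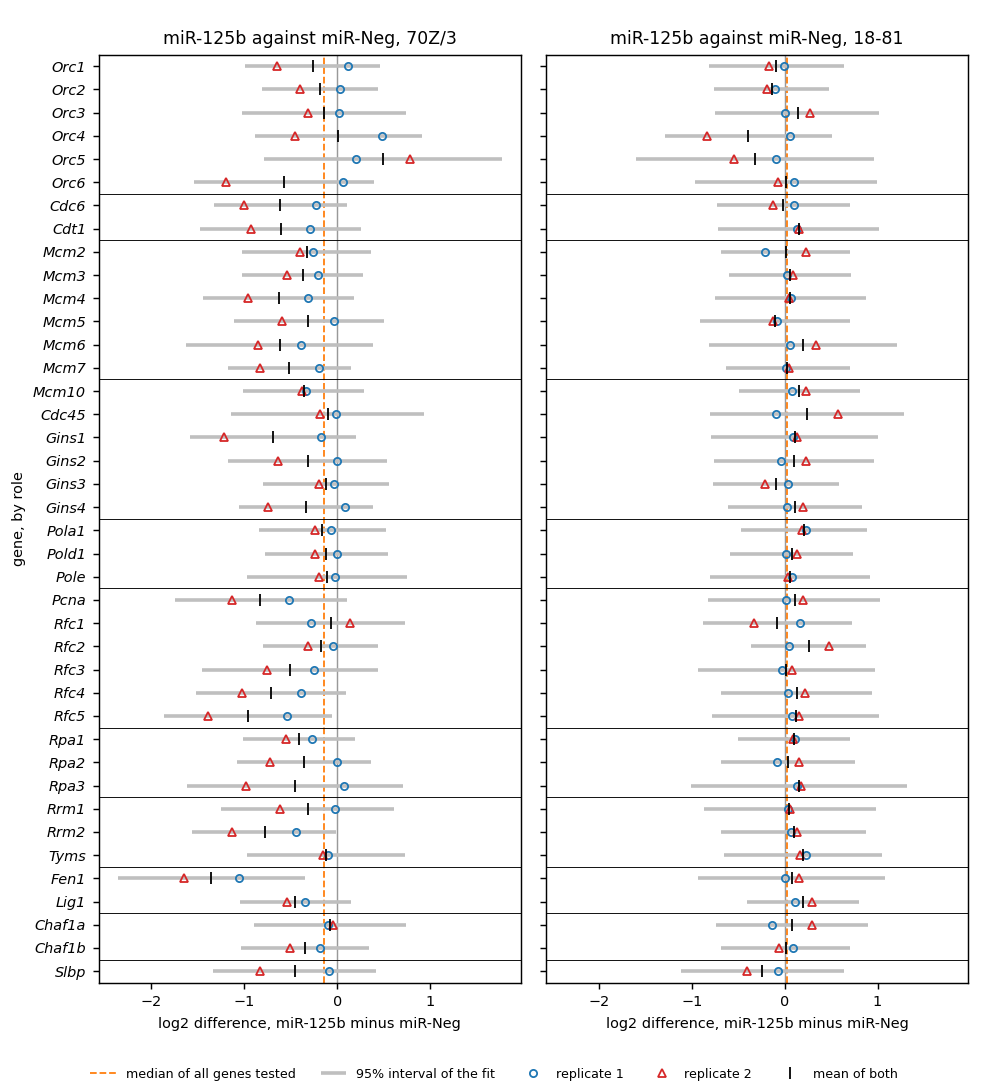
Log2 difference between miR-125b and miR-Neg for each replication gene in 70Z/3 (left) and '18-81' (right), with circles for replicate 1, triangles for replicate 2, ticks for the mean of both and grey bars for the 95% interval of the fit. In 70Z/3 most triangles lie left of the circles and of the dashed median of all genes, and in '18-81' the means lie between −0.39 and 0.26.

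Fitting the replicate number as a block raised the count of members at an unadjusted limma p under 0.05 in 70Z/3 from 3 to 10, all lower. The share of all genes, counted in both directions, rose from 5.91 to 20.4%, against 25% of members. The block within each line gave 8 members (20%), all lower, against 20.6% of genes in both directions. The members' share did not exceed the genes' share in that fit when both directions are counted. The share of genes that were lower was not counted separately in the block fits. In the first of these fits the added members were Cdc6, Cdt1, Gins1, Mcm4, Mcm6, Pcna and Rfc4, of which Cdc6 and Gins1 were absent from the second. The smallest limma adjusted p among members was 0.194 in the first and 0.21 in the second, so that no member was called. Replicate 2 exceeded replicate 1 of 70Z/3 with miR-Neg for 31 of the 40 members, by a median of 0.39, against 0.29 for all genes and 0.03, 0.11 and 0.16 for members in the other 3 groups. That gap ranged from −0.59 for Rfc1 to 1.43 for Rpa3. The part of this gap in the 70Z/3 result was not tested beyond the values without that array.

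Markers of other cell types were also read in the 70Z/3 groups. Of the 5 myeloid and 6 T-cell markers tested there, 0 were called with miR-125b, as was no gene at all. The myeloid median was 0.77 relative to all genes, with 3 of 5 above the median gene. At an unadjusted limma p under 0.05, 2 myeloid markers were higher and 1 lower. The T-cell median was −0.54, with 5 of 6 below the median gene. Both miR-125b arrays lay below both miR-Neg arrays for 5 of the 6 T-cell markers. Of 6 myeloid markers, 3 were well above background on both miR-Neg arrays and 5 on both miR-125b arrays, with a summed linear level of 11.4 to 17.0 and 14.5 to 17.8 times the 75th percentile. Cd68, Lyz2 and Mpo were not above background on the miR-Neg arrays. Of 7 T-cell markers on the array, 3 were above background in both groups, with sums of 6.63 to 9.85 and 6.06 to 6.15. Their part in the members' values was not tested.

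In '18-81' the replication genes stood close to all genes. The fit called 0 members and 0% of 18791 genes, and at an unadjusted p under 0.05 limma gave no member in either direction, against 117 genes higher and 115 lower. The median member was at 0.08, 0.04 relative to all genes, with pairs of 0.02 and 0.08. No member had both miR-125b arrays lower, against 4.83% of all genes, and 4 (10%), Mcm10, Rfc2, Rpa1 and Lig1, had both higher, against 8.3%. The 95% intervals of the members had half-widths of 0.60 to 1.28 and reached from −1.60 at the lowest to 1.32 at the highest. True differences within a member's interval are not excluded by these arrays. A limma p above the threshold here does not show that a member was equal in both groups.

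The lowest members in '18-81' were origin recognition subunits. Orc4, which binds ATP within the complex, read 0.03 and 0.35 with miR-Neg and 0.09 and −0.49 with miR-125b, a difference of −0.39 ± 0.39 that came from replicate 2. Orc5 read 1.65 and 0.56 against 1.56 and 0.01, −0.32 ± 0.55, and the gap between replicates, 1.09 with miR-Neg, exceeded the gap between duplexes. Slbp read 3.35 and 2.84 against 3.28 and 2.43, −0.24 ± 0.38. Each of these genes had overlapping arrays.

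The highest members in '18-81' were Rfc2, Cdc45 and Pola1. Rfc2 read 5.00 and 4.69 with miR-Neg and 5.05 and 5.16 with miR-125b, a difference of 0.26 ± 0.27 with no overlap but only 0.05 between the nearest arrays. Cdc45, the helicase cofactor, read 1.30 and 0.17 against 1.22 and 0.74, 0.24 ± 0.45, with replicates 1.13 apart in the control. Pola1 read 2.95 and 3.37 against 3.18 and 3.57, 0.21 ± 0.29, with pairs of 0.23 and 0.19 and a value of 0.00 when miR-Neg replicate 1 is left out. The limma adjusted p was 1 for each of the 6 genes named.

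Fen1, Rfc5, Pcna and Rrm2, the members lowest with miR-125b in 70Z/3, differed in '18-81' by 0.08 ± 0.44, 0.12 ± 0.39, 0.11 ± 0.40 and 0.10 ± 0.34. Fen1 there read 5.68 and 6.30 with miR-Neg and 5.68 and 6.46 with miR-125b, so the 2 duplexes gave the same value in replicate 1. The difference of the effects was tested by its own contrast, '18-81' minus 70Z/3, which called 0 members and 0% of genes. Fen1 had the only unadjusted p under 0.05 among members, 1.43 ± 0.62 (limma adjusted p = 0.931), against 371 genes higher and 242 lower. The median difference of effects was 0.43 for members and 0.17 for all genes. A different response of the lines was therefore not shown for any single member.

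**Figure D3:**
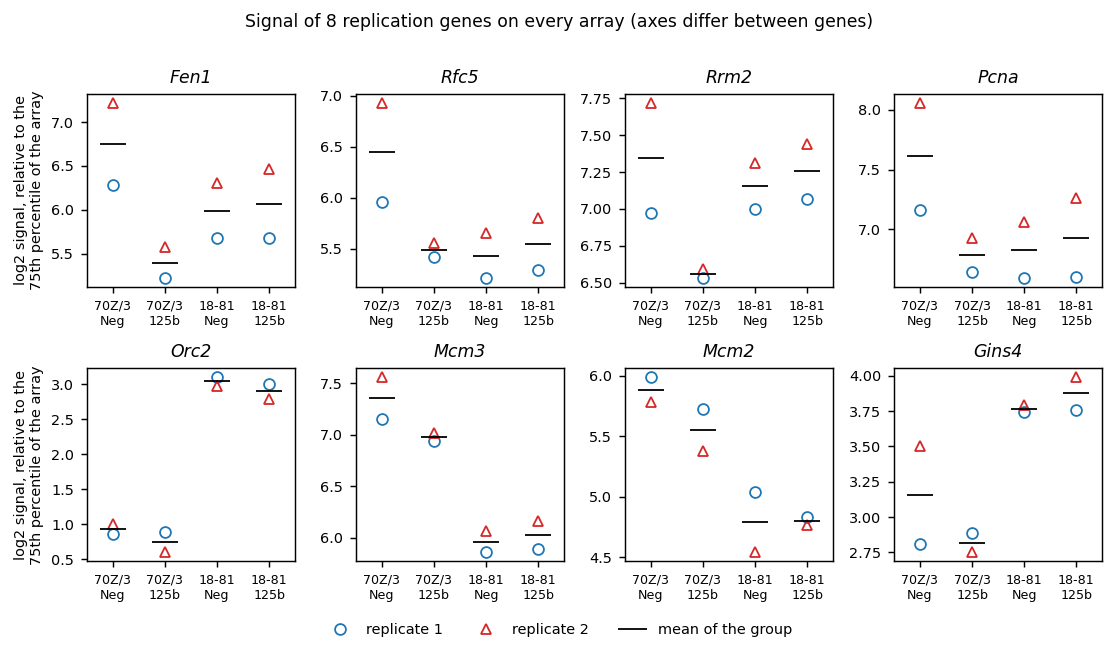
Log2 signal relative to the 75th percentile of the array for 8 replication genes, with circles for replicate 1, triangles for replicate 2 and bars for group means. In the upper row the 70Z/3 miR-125b arrays lie below the 70Z/3 miR-Neg arrays for Fen1, Rfc5, Rrm2 and Pcna, and in the lower row the lines separate for Orc2, Mcm3, Mcm2 and Gins4.

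Between the lines, over both duplexes with 4 arrays each, Orc2 and Gins4 were higher in '18-81' and Mcm3, Mcm2 and Chaf1b lower. These 5 called members are 12.5% of the 40, against 32.1% of all genes. Among the 14654 genes well above background on all 8 arrays, as every member was, 24.3% were called, with the same 5 members. The differences had a standard deviation of 0.541 for the members and 1.89 for all genes tested, which include genes not above background on every array. The spread of the 14654 genes was not computed. The median member was at 0.04 relative to all genes, with 19 members below and 21 above the median gene. All 4 arrays of '18-81' were above all 4 of 70Z/3 for 2 members (5%), against 19.4% of genes, and below for 6 (15%), against 17.4%. With the replicate number as a block 8 members were called, against 48% of genes, adding Mcm6, Pola1 and Rpa1, and with quantile normalization 8, against 36.1% of genes, adding Mcm6, Pola1 and Rfc5. Marker lists also differed between the lines. Of 10 B-cell precursor markers tested, 2 were called higher in '18-81' and 5 lower, with a median of −0.59 relative to all genes. All 5 myeloid markers tested were below the median gene, 2 of them called lower, with a median of −0.60. Of 6 T-cell markers tested 3 were called higher, with 3 of the 7 on the array well above background in both groups of 70Z/3 and 5 or 6 in those of '18-81', and summed levels of 6.06 to 9.85 and 8.52 to 12.2 times the 75th percentile. Their part in the members' values was not tested.

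Orc2 showed by far the widest gap. This subunit of the origin recognition complex read 0.86 and 1.00 in 70Z/3 with miR-Neg and 0.89 and 0.60 with miR-125b, and in '18-81' 3.1 and 2.98 with miR-Neg and 3.00 and 2.79 with miR-125b. The groups did not overlap, and the difference was 2.13 ± 0.19 (4.38-fold higher in '18-81'; limma adjusted p = 5.37e-05). It was measured with 1 probe, whose ends map to chr1:58521127-58522890 in mm9. The other origin recognition subunits lay between −0.10 for Orc5 and 0.36 for Orc1, and none of these passed the test.

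The helicase ring was uneven between the lines. Mcm3 read 7.15, 7.56, 6.94 and 7.02 on the 70Z/3 arrays, with miR-Neg first, and 5.86, 6.07, 5.89 and 6.16 on those of '18-81'. It was lower in '18-81' by −1.17 ± 0.20 (2.25-fold; limma adjusted p = 0.0026), with no overlap. Mcm2 read 5.99, 5.78, 5.73 and 5.38 against 5.04, 4.54, 4.83 and 4.77, a difference of −0.93 ± 0.21 (1.90-fold lower; limma adjusted p = 0.0109). Mcm6 (−0.62 ± 0.31), Mcm5 (−0.44 ± 0.25) and Mcm7 (−0.34 ± 0.20) did not pass, nor did Mcm4, the subunit with a value above 0 (0.11 ± 0.25). Mcm3 and Orc2 were called in each of the alternatives run, while Mcm2 was not called without 70Z/3 miR-125b replicate 1 (limma adjusted p = 0.0569) or on the miR-125b arrays alone (0.119). The probes lie at chr1:20793136-20793195 for Mcm3 and chr6:88833619-88833678 for Mcm2, in mm9.

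Gins4, a GINS subunit, read 2.81, 3.5, 2.89 and 2.75 in 70Z/3 and 3.74, 3.79, 3.76 and 3.99 in '18-81', a difference of 0.83 ± 0.22 (1.78-fold; limma adjusted p = 0.0212) without overlap. Gins1, Gins2 and Gins3 lay between −0.18 and 0.21. Chaf1b, a subunit of the chaperone that places new histones behind the fork, read 5.85, 6.43, 5.67 and 5.92 in 70Z/3 and 5.22, 5.22, 5.30 and 5.15 in '18-81', lower by −0.75 ± 0.21 (1.68-fold; limma adjusted p = 0.0281), and its second probe gave −0.72. Its partner Chaf1a was at 0.20 ± 0.25. Gins4 and Chaf1b lost the call without a filter on dim probes (limma adjusted p = 0.0646 and 0.0882). Gins4 also lost it when 70Z/3 miR-125b replicate 1 or 2, '18-81' miR-Neg replicate 1 or 2 or '18-81' miR-125b replicate 2 was left out, and Chaf1b when any array but 70Z/3 miR-Neg replicate 1 was, with limma adjusted p-values of 0.0572 to 0.0842 for Gins4 and 0.0556 to 0.115 for Chaf1b. On the miR-Neg arrays alone they were 0.224 and 0.0625. The count of called members was lowest, at 2, without 70Z/3 miR-125b replicate 1.

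Of the other members, Pola1 came closest, at −0.62 ± 0.21 (limma adjusted p = 0.0544), with 3.85, 4.08, 3.78 and 3.84 in 70Z/3 above 2.95, 3.37, 3.18 and 3.57 in '18-81'. Rpa1 (−0.44 ± 0.18, adjusted p = 0.112 in limma) and Mcm7 also had no overlap. Cdc6 (0.45 ± 0.22), Slbp (0.42 ± 0.27), Rfc4 (0.40 ± 0.25) and Cdc45 (0.40 ± 0.32) had the highest values that did not pass. Fen1, Lig1, Rpa2, Orc4 and Gins1 lay between −0.08 and 0.11.

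**Figure D4:**
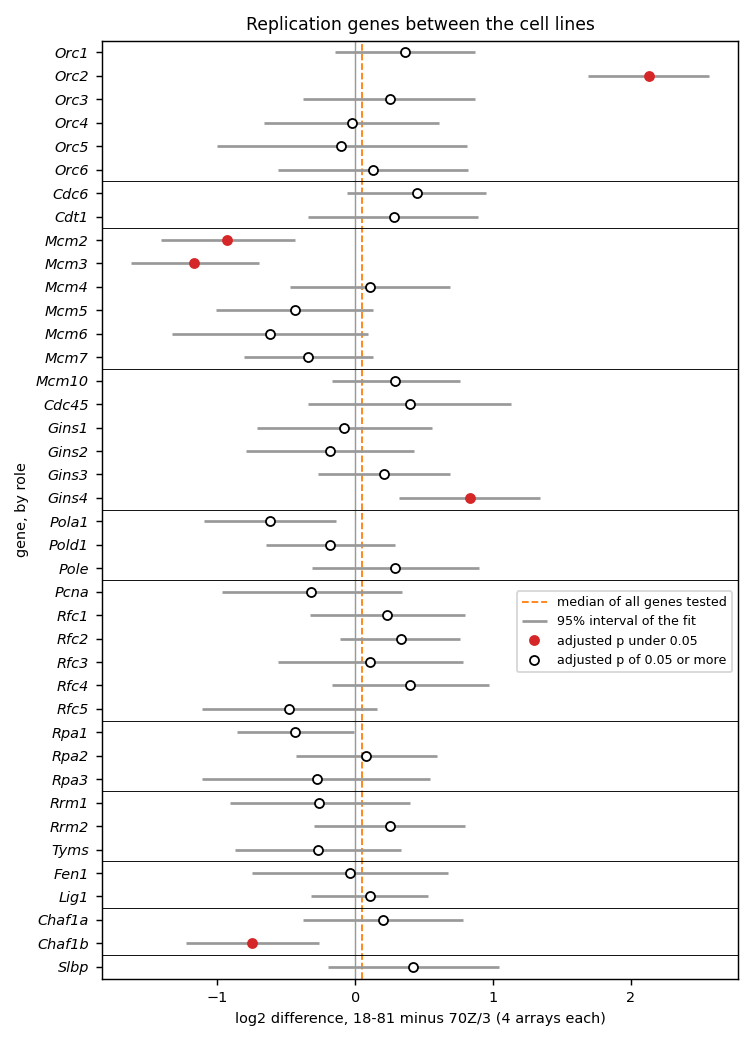
Log2 difference between '18-81' and 70Z/3 for each replication gene over both duplexes, with 4 arrays per line, bars for the 95% interval of the fit and filled points for an adjusted p under 0.05. Orc2 stands at 2.13, Mcm3 and Mcm2 at −1.17 and −0.93, and most other genes within 0.5 of 0.

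A list of 49 other replication genes, all tested, was read beside the members. With miR-125b in 70Z/3 none was called, 34 of 49 were below the median gene, the median was −0.15 relative to all genes, and 4 had an unadjusted limma p under 0.05, all lower. The lowest were Dut, which destroys dUTP (−0.97 ± 0.35), Rnaseh2b, a subunit of the nuclease that removes ribonucleotides from DNA (−0.90 ± 0.29), and Gmnn, the inhibitor of Cdt1 (−0.79 ± 0.51). Among the highest were Mtbp (0.24 ± 0.31), which takes part in origin firing, and Rrm2b (0.18 ± 0.35), a ribonucleotide reductase subunit whose second probe gave 0.70. The second probe of Samhd1 gave 0.55, against 0.09 for the probe used. Among 14 genes of G2 and M phase, none was called and 11 were below the median gene, with a median of −0.23 relative to it. Both miR-125b arrays lay below both miR-Neg arrays for 10 of these 14 and for 23 of the 49. That order held for 22 of the 40 members and 22.8% of all genes.

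In '18-81' none of the 49 was called or had an unadjusted limma p under 0.05. By the probe that stood for each gene, Gmnn (−0.70 ± 0.51), Dna2 (−0.37 ± 0.60) and Dbf4 (−0.32 ± 0.30) had the lowest values. Pold3 (0.21 ± 0.27), Prim1 (0.20 ± 0.37) and Uhrf1 (0.19 ± 0.30) had the highest. The second probe of Mcm9 gave −0.94, against −0.09 for the probe used, and the second probe of Uhrf1 gave 0.01. For Gmnn the '18-81' value came mainly from replicate 1, where 3.52 with miR-Neg stood against 2.34 with miR-125b.

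Between the lines 10 of the 49 were called higher in '18-81' and 5 lower, 30.6%, against 32.1% of all genes. Among the 14654 genes well above background on all 8 arrays, as each of the 49 was, 24.3% were called. The 30.6% comes from the fit to all 18792 genes. The 2 genes with the widest gaps were Prim2 and Pole2, while the polymerase subunits Pola2 (0.19 ± 0.58), Prim1 (0.34 ± 0.26), Pold2 (−0.07 ± 0.34), Pold3 (−0.08 ± 0.19) and Pole4 (−0.79 ± 0.32) were not called and Pold4 (0.82 ± 0.19) and Pole3 (0.85 ± 0.23) were called higher. Prim2, the large primase subunit that works with Pola1, was lower in '18-81' by −3.81 ± 0.23 (limma adjusted p = 4.45e-06), with 3.94 to 4.84 on the 70Z/3 arrays and 0.36 to 0.66 on those of '18-81'. Pole2, the second subunit of the polymerase of Pole, was higher by 3.58 ± 0.20 (limma adjusted p = 3.43e-06), with 1.97 to 2.84 in 70Z/3 and 5.78 to 6.06 in '18-81'. Neither gene's arrays overlapped between the lines, and each was measured with 1 probe, while Pole itself was at 0.29 ± 0.26. A second, dimmer probe of Pole, well above background on 3 arrays, gave −0.42. The next lowest were Samhd1 (−1.13 ± 0.18), which degrades deoxynucleotides, and Mcm9 (−1.05 ± 0.33), and the next highest Top2a (1.13 ± 0.21), a topoisomerase, and Rrm2b (1.03 ± 0.25). The second probe of Samhd1 gave −0.53.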

How the data were processed

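RNA of 8 samples in 4 groups was labelled with Cy3 and hybridised to 1-colour Agilent arrays, using 0.2 µg of RNA with an integrity number of 9, per the labels. Per the file headers, the authors extracted each array's intensity with Agilent Feature Extraction 10.7.3.1, and the processed intensity that was used is already background-subtracted; probe positions refer to mm9. The authors also deposited a series table with linear intensity of these arrays, normalized between arrays by a method not given in the sources used here. It is not centred by gene, each column follows its scanner file with r from 0.9974 to 1, and it served as an alternative.

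Control and outlier spots were left out, spots of a probe were averaged, and each array's 75th percentile was subtracted after taking log2. Probe names came from the RefSeq table of GRCm38.p6 (55681 probes: 26413 matched by accession, 3859 by symbol, 735 by older symbol, and 24674 left under the array's own name). Genes entered the test when both arrays of any group had a probe well above background, and the brightest probe stood for its gene. This gave 18792 genes, 1 of which lacked a value in some contrasts.

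limma 3.58.1 in R 4.3.3 fitted 4 group means to all 8 arrays moderating variances by empirical Bayes (3.84 prior degrees of freedom). The contrasts were the duplexes in each line, the difference of these effects, and the lines over both duplexes. The fit was tested on simulated data with independent arrays and added differences larger than any member's miR-125b difference. That test therefore does not show what the fit detects at the sizes seen here. Members and lists were chosen with earlier results of these data known. Every array value is given for members called in any contrast and for the 3 largest differences in each direction per line, beside counts for all others and a few members picked after their values were seen. The 3 largest differences in each direction are also given for the other replication genes, except 1 gene that is not reported here, which the counts include. Same-numbered replicates deviated together (r between 0.374 and 0.648 over 6 pairs of groups), and since the submitters describe 2 independent experiments the numbers were read as pairs. Same-numbered arrays also shared a slide row, which cannot be told apart from a shared experiment. The reported fit has no block, and blocks by number are alternatives. Other alternatives were quantile normalization, normexp background correction, the series table, other filters, the mean of probes, an intensity trend, fewer groups and leaving out each array. With 8 arrays their number limits precision.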

Additional observations from a re-analysis of the deposited data

How the results depend on the processing

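No member was called for miR-125b in either line, or for the difference of the effects, under any alternative run. Orc2 and Mcm3 were called between the lines in every one. The count of members called between the lines was 8 with quantile normalization, with the authors' deposited normalized values and with either replicate block, against 36 to 48% of all genes, and 3 without a filter on dim probes (14.6% of genes) or on the arrays of 1 duplex only (21.4 and 21.7%); leaving out 1 array gave 2 to 5 (24.3 to 31% of genes). The median of members relative to all genes was 0.03 in 70Z/3, 0.11 in '18-81' and 0.30 between the lines without a filter, and −0.13 between the lines on miR-Neg arrays only. Leaving out 1 array gave −0.40 to −0.07 in 70Z/3, −0.02 to 0.07 in '18-81' and −0.06 to 0.09 between the lines. Counts for 70Z/3 were added after the data had been seen: members below the median gene (17 without a filter, 24 to 34 leaving out 1 array) and members whose miR-125b arrays both lie below the controls (12 with quantile normalization, 13 with the authors' values, and 26 to 34 leaving out 1 array, against 31.3 to 56.1% of all genes, since 1 array fewer is compared). Orc4 in 70Z/3 turned to −0.03 with the mean of its probes and ranged from −0.48 to 0.51 leaving out 1 array, and in '18-81' Orc5 ranged from −1.09 to 0.46, Slbp from −0.66 to 0.18, Cdc45 from −0.33 to 0.81, Orc4 from −0.68 to −0.10, Pola1 from 0.00 to 0.42 and Rfc2 from 0.11 to 0.42. In 70Z/3 Fen1 ranged from −1.82 to −0.89, Rfc5 from −1.45 to −0.48, Pcna from −1.28 to −0.38 and Orc5 from 0.24 to 0.74. The cause of these changes was not tested. With 2 arrays a group, intervals of about 1 log2 unit limit what could be seen, and a fit that leaves a group 1 array takes that array to vary like the others.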
